A study of Homo sapiens with 12 samples.

Results

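All 12 arrays of the series entered one comparison, in which the 9 arrays of SW480 ADH cells given any form of SPRY2 were set against the 3 arrays of Mock cells. The members were chosen by their group labels, and the comparison weighted the 3 construct groups equally. SW480 ADH is an adherent subline of the human colon carcinoma line SW480. The groups were Mock (mock transfected, 3 arrays), SPRY2 WT (wild-type gene, 3 arrays), SPRY2 S112A (a serine replaced by alanine, 3 arrays) and SPRY2 Y55F (a tyrosine replaced by phenylalanine, 3 arrays). All were cultured for 72 h in medium with fetal bovine serum. The labels do not say whether Mock cells carried an empty vector, whether transfection was transient or stable, or whether a group came from 1 or several transfected populations. A difference between Mock and all constructs therefore cannot be told apart from an effect of carrying a vector or of the cell population used. Differences among the constructs likewise cannot be told apart from differences between the transfected populations.

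SPRY2 encodes Sprouty2, an intracellular protein that dampens signalling from receptor tyrosine kinases through RAS, RAF and ERK and also affects how long some of these receptors stay at the membrane. The tyrosine replaced in Y55F is phosphorylated after growth factor stimulation and then binds the ubiquitin ligase CBL, and the serine replaced in S112A belongs to those whose phosphorylation has been tied to the stability of the protein. Genes that moved the same way with all 3 forms moved whether or not either residue was replaced. The files give expression as a log2 value for each of 24916 Ensembl gene IDs, and neither they nor the tables used here pair an ID with a gene symbol. The level of SPRY2, the colon and other cell type markers and pathway lists are therefore not analysed here. Instead, 4 gene IDs are described in detail, chosen for the largest changes common to all constructs, and they are not typical of the rest.

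The 12 arrays had similar distributions, with medians between 7.20 and 7.32 on the log2 scale. The mean correlation of a construct array with the Mock arrays lay between 0.991 and 0.994, and that of a Mock array with the other Mock arrays between 0.997 and 0.998. With 3 arrays in a group, precision is limited throughout.

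Set against Mock, the pooled constructs differed at 2283 gene IDs, 9.16% of those tested, by limma's moderated test at an adjusted p of 0.05. Of these, 1117 were higher in the constructs (4.48%) and 1166 lower (4.68%). The larger differences were more often falls. By at least 1.5-fold 232 IDs were lower (0.931%) and 115 higher (0.462%), by at least 2-fold 66 were lower and 26 higher, and by at least 4-fold 6 were lower and 1 was higher. Over all IDs the median size of the pooled difference was 0.053 on the log2 scale, and the median signed difference was 0.0032. Leaving out any Mock array lowered the count, to 1384 without replicate 1, 1538 without replicate 2 and 1428 without replicate 3. Median centring of the arrays gave 1304 rises and 945 falls, which turned the majority direction. When differences between the constructs were counted as spread, by giving all 9 arrays a single mean, 91 IDs passed (30 higher, 61 lower).

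**Figure D1:**
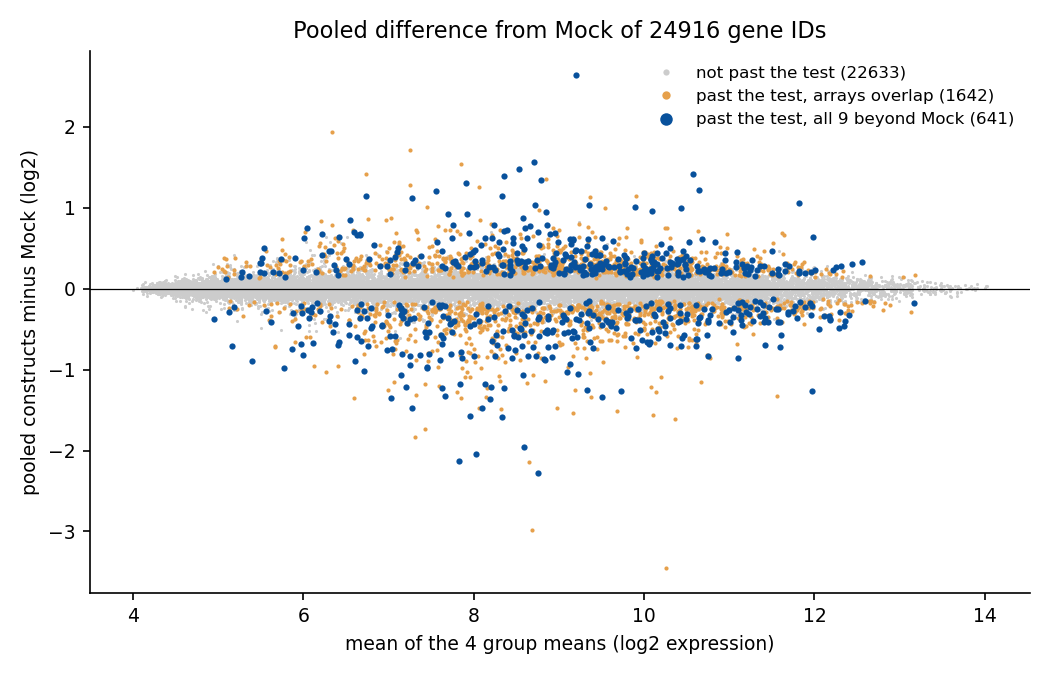
Each point is a gene ID, placed by the mean of its 4 group means (x axis, log2 expression) and by the pooled construct mean minus the Mock mean (y axis, log2). The 641 IDs in blue passed the test with all 9 construct arrays beyond the 3 Mock arrays, the 1642 in orange passed with overlapping arrays, and the 2 points farthest below zero are orange, while the farthest blue point is a rise.

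Only part of the pooled difference was common to the 3 constructs. All 9 construct arrays lay above all 3 Mock arrays at 410 IDs (1.65%) and below them at 353 (1.42%), together 763 IDs or 3.06% of all. Of these, 641 also passed the pooled test (2.57% of all IDs), 326 higher (1.31%) and 315 lower (1.26%), and they are called the common IDs here. They made up 28.1% of the IDs that passed the test and 84.0% of those whose arrays did not overlap. The remaining 122 separated IDs missed the threshold, with a median size of 0.15 for the 84 higher and 0.14 for the 38 lower ones on the log2 scale. With each array centred on its median, 472 separated IDs were higher and 267 lower, which moved the share of higher IDs from 53.7% to 63.9%. The split of the common IDs moved from 326 and 315 to 365 and 245. Quantile normalizing again gave 323 higher and 372 lower common IDs, so the majority direction depended on the scaling. Leaving out Mock replicate 1, 2 or 3 raised the number of separated IDs to 1129, 1333 and 1339 in that order, since 2 Mock arrays span a narrower range than 3.

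At the edge of the separation rule the arrays nearly touched. The common ID with the smallest gap among the higher ones had its lowest construct array at 9.57 and its highest Mock array at 9.57, a gap of 0.00011, with a pooled difference of 0.21. The nearest ID that passed the test and was left out had a gap of -0.0024, which is an overlap, and a pooled difference of 0.31. Among the lower ones the smallest gap was 0.0016, with a pooled difference of -0.24, and the nearest ID outside had a gap of -0.00028 and a pooled difference that also rounds to -0.24. The median gap was 0.056 for the higher and 0.093 for the lower common IDs, and the largest were 1.12 and 0.87. A gap of at least 1.25-fold was left at 17 higher and 41 lower IDs, and one of at least 1.5-fold at 4 and 10.

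The largest rise shared by all constructs, ranked by the smallest of the 3 construct differences, was that of ENSG00000173926. Its log2 values in Mock were 9.57, 9.38 and 9.57. They were 10.71, 10.68 and 10.70 in WT, 11.09, 11.15 and 11.04 in S112A and 10.96, 11 (rounded to 2 decimals) and 10.98 in Y55F cells. The construct arrays lay close together within each group and at least 1.12 above the highest Mock array. The pooled mean was 10.92 against 9.51 ± 0.11 in Mock (SD, n = 3), a difference of 1.42 ± 0.05 (SE), or 2.67-fold, with adjusted p = 1.52e-08 in limma. The rise was 2.29-fold in WT, 3.01-fold in S112A and 2.78-fold in Y55F cells. The constructs differed among themselves by the moderated F test in limma (adjusted p = 0.000483). WT was the lowest of them, with S112A higher than WT by 0.40 (95% interval 0.27 to 0.52) and Y55F higher than WT by 0.28 (0.16 to 0.41), at adjusted p = 0.000254 and 0.00376 in limma. The test found no difference between Y55F and S112A, which lay -0.11 apart (Y55F minus S112A) with an interval from -0.24 to 0.0093.

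ENSG00000130755 had the next largest common rise. Mock arrays read 7.97, 7.62 and 7.78, WT arrays 8.68, 8.88 and 9.17, S112A arrays 8.75, 9.23 and 8.85, and Y55F arrays 9.37, 9.68 and 9.55. All 9 construct arrays lay at least 0.71 above the highest Mock array, the Y55F arrays stood above all other arrays, and WT and S112A arrays overlapped. The pooled mean of 9.13 exceeded the Mock mean of 7.79 ± 0.18 (SD, n = 3) by 1.34 ± 0.12 (SE), or 2.53-fold, with adjusted p = 2.54e-05 in limma. The rise was 2.17-fold in WT, 2.22-fold in S112A and 3.35-fold in Y55F cells, and the F test among constructs gave adjusted p = 0.00967 in limma, which became 0.0558 without Y55F replicate 2. Y55F was higher than WT by 0.62 (95% interval 0.30 to 0.95, adjusted p = 0.0106 in limma) and higher than S112A by 0.59 (0.26 to 0.92, adjusted p = 0.0147 in limma). Between S112A and WT the difference was 0.033, with an interval from -0.29 to 0.36.

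The largest common fall was that of ENSG00000160255. Its values were 8.74, 8.80 and 8.61 in Mock, 7.56, 7.60 and 7.56 in WT, 7.54, 7.73 and 7.71 in S112A and 7.16, 7.50 and 7.51 in Y55F cells. The highest construct array lay 0.87 below the lowest Mock array, and Y55F replicate 1 was the lowest of all. The pooled mean of 7.54 lay below the Mock mean of 8.71 ± 0.10 (SD, n = 3), with a difference of -1.17 ± 0.08 (SE), a 2.25-fold fall with adjusted p = 1.93e-06 in limma. The fall was 2.20-fold in WT, 2.08-fold in S112A and 2.50-fold in Y55F cells. The constructs did not differ past the threshold here (adjusted p = 0.103 for the F test in limma). The intervals of their differences ran from -0.12 to 0.28 for S112A minus WT, from -0.39 to 0.014 for Y55F minus WT and from -0.47 to -0.069 for Y55F minus S112A, whose adjusted p in limma was 0.0633. With array weights the F test passed, at adjusted p = 0.0128 in limma.

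ENSG00000171401, the next common fall, was common in direction but not in size. Mock arrays read 10.31, 10.58 and 10.52, and S112A arrays 9.58, 9.29 and 9.50. WT arrays read 7.35, 7.65 and 7.58, and Y55F arrays 7.42, 7.32 and 7.99. The S112A arrays formed a level of their own between Mock and the other constructs, 0.72 below the lowest Mock array at their highest. The pooled difference was -2.28 ± 0.13 (SE), a 4.86-fold fall from a Mock mean of 10.47 ± 0.15 (SD, n = 3), with adjusted p = 6.45e-07 in limma. The fall was 7.69-fold in WT and 7.43-fold in Y55F cells but 2.01-fold in S112A cells, and the F test among constructs gave adjusted p = 1.81e-06 in limma. S112A exceeded WT by 1.93 (95% interval 1.59 to 2.27, adjusted p = 2.09e-06 in limma), while Y55F and WT differed by 0.050, with an interval from -0.29 to 0.39. With a single mean for all 9 construct arrays the call was lost, at adjusted p = 0.127 in limma.

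**Figure D2:**
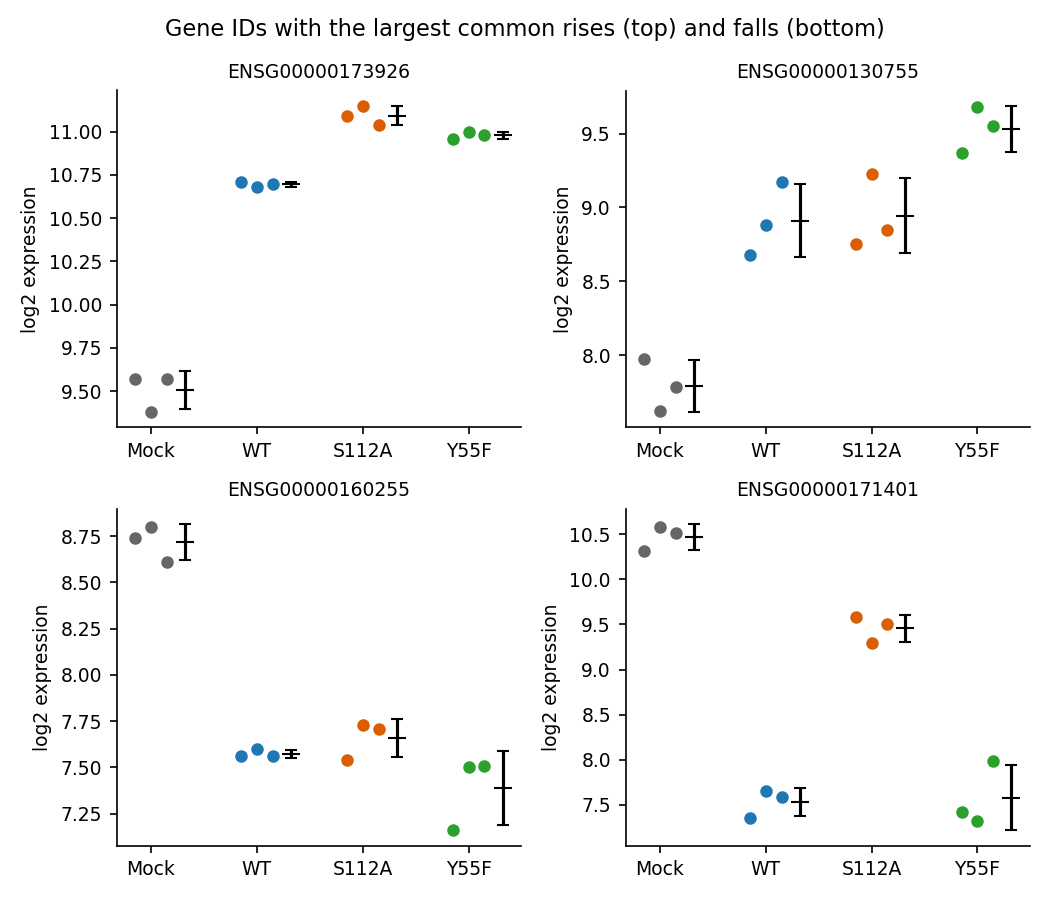
Log2 expression of 4 gene IDs in the 12 arrays, with 3 points per group for replicates 1 to 3 and, to their right, the group mean with its SD. In each panel the 9 construct arrays lie beyond the 3 Mock arrays, and the S112A arrays of ENSG00000171401 lie between the Mock arrays and those of WT and Y55F.

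Most common changes were small. The median pooled rise of the 326 higher IDs was 1.24-fold, with quartiles of 1.18-fold and 1.38-fold, and the median fall of the 315 lower IDs was 1.33-fold, with quartiles of 1.23-fold and 1.57-fold. The extremes were a 6.23-fold rise and a 4.86-fold fall. At least a 1.5-fold pooled change was reached by 151 common IDs, 55 higher and 96 lower. A change of at least 1.5-fold in every construct was reached by 46, of which 17 were higher and 29 lower, and one of at least 2-fold in every construct only by the 4 IDs described above. Since the members were chosen on these same values, their sizes are a description.

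The 46 IDs with at least a 1.5-fold change in every construct, taken by direction, had median levels above the median of all IDs in Mock. This held in Mock and in the constructs. For the 17 that rose, the median level went from 7.43 in Mock to 8.91 in the constructs, and for the 29 that fell it went from 8.65 to 7.38. The median of all IDs in Mock was 7.27. The median rise was 1.99-fold in WT, 1.92-fold in S112A and 2.13-fold in Y55F cells. The median fall was 1.83-fold in WT, 1.80-fold in S112A and 2.48-fold in Y55F cells. The largest rise among them reached 50.1-fold in WT cells, against a largest rise of 4.22-fold in S112A and 5.53-fold in Y55F cells, and the largest fall was 7.69-fold in WT, 2.76-fold in S112A and 10.6-fold in Y55F cells. Signal over background was not analysed, so folds at low levels may understate the change.

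The size of the common changes varied by construct. Y55F cells showed the largest of the 3 differences at 168 of the 326 higher and 170 of the 315 lower common IDs, S112A cells at 92 and 73, and WT cells at 66 and 72. WT cells had the smallest difference at 151 and 135, S112A cells at 119 and 134 and Y55F cells at 56 and 46. The median log2 difference of the higher common IDs was 0.25 in WT, 0.29 in S112A and 0.35 in Y55F cells, and that of the lower ones was -0.35 in WT, -0.37 in S112A and -0.49 in Y55F cells. These 3 sets of differences share the Mock arrays. Over all IDs, too, the Y55F arrays correlated least with the Mock arrays, at a mean r of 0.9906 to 0.9921. The mean r was 0.9924 to 0.9932 in the WT and 0.9923 to 0.9936 in the S112A arrays. How often each construct differed most from Mock over all IDs was not counted. Array by array, the median of the higher common IDs stood 0.23 to 0.30 above the Mock mean in the WT arrays, 0.26 to 0.32 in the S112A arrays and 0.35 to 0.37 in the Y55F arrays, so that WT and S112A arrays overlapped and the Y55F arrays lay above both. For the lower common IDs the medians ran from -0.39 to -0.30 in WT, from -0.39 to -0.36 in S112A and from -0.50 to -0.48 in Y55F arrays.

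**Figure D3:**
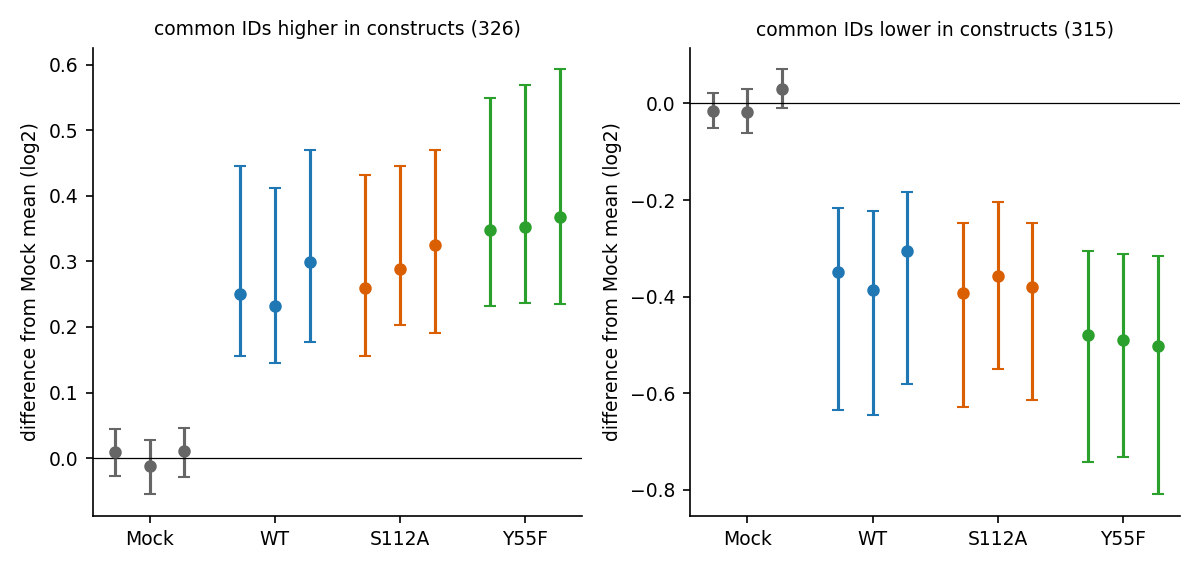
Median difference from the Mock mean (y axis, log2) over the 326 higher (left) and 315 lower (right) common IDs in each of the 12 arrays, with bars for the lower and upper quartile over IDs. The Y55F arrays, with medians of 0.35 to 0.37 and of -0.50 to -0.48, lie farthest from Mock. The IDs were chosen on these arrays, so the distance from Mock is a description.

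At a single common ID the 3 constructs often differed in size. The largest construct difference was a median of 2.40 times the smallest on the log2 scale among the higher and 2.26 times among the lower common IDs. It was at most 1.5 times the smallest at 42 higher and 49 lower IDs, and more than 3 times at 104 and 95. The moderated F test compared the 3 construct means, with Mock contributing only through the shared estimate of spread. By this test 401 of the 641 common IDs differed between constructs, 62.6%, where 7276 of all IDs did (29.2%). That 29.2% is not matched for level. With all IDs ordered by mean level into 3 sets of 8305 or 8306, the lowest set had 396 past the F test. The middle set had 2553 and the highest 4327. Common IDs made up 0.313%, 2.87% and 4.54% of these sets in the same order. They were also chosen by a test with the same estimate of spread, and a matched comparison was not run. The 401 comprised 191 higher and 210 lower IDs. At the other 240 common IDs the 3 construct means spanned a median of 0.13 on the log2 scale among both the higher and the lower IDs, and 13 of them changed at least 1.5-fold in every construct, 4 up and 9 down. Missing the threshold does not show that the constructs acted alike there.

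**Figure D4:**
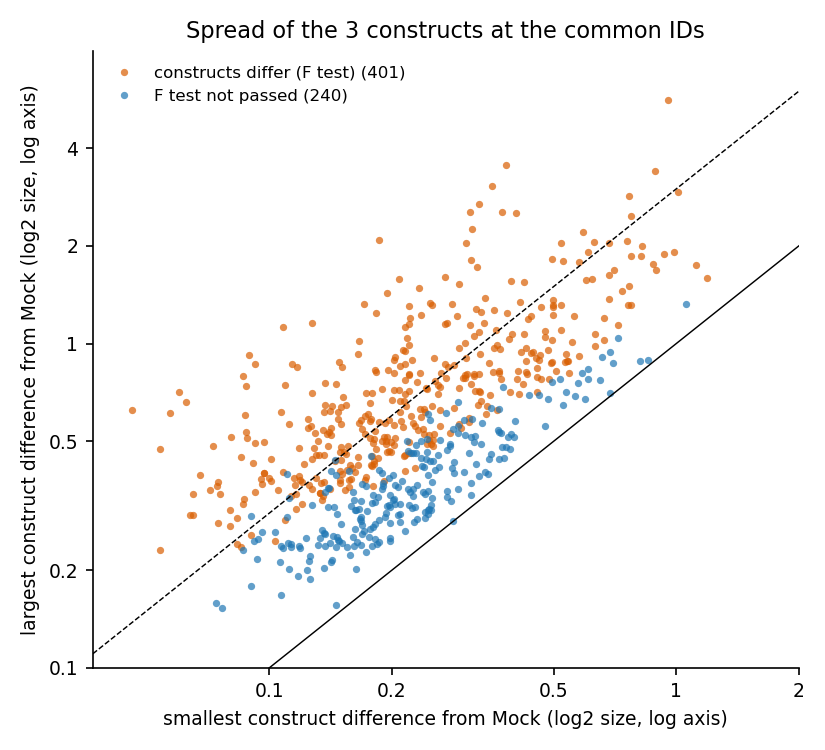
For each of the 641 common IDs, the smallest (x axis) and the largest (y axis) of the 3 construct differences from Mock, as sizes on the log2 scale and on log axes. The solid line marks equal size and the dashed line a largest difference of 3 times the smallest. The 401 IDs at which the constructs differed by the F test lie mostly away from the solid line, and the 240 that missed it lie nearer to it.

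The other 1642 IDs that passed the pooled test, 71.9% of them, had at least 1 construct array that did not clear the Mock range in the direction of the pooled difference. At 357 of these IDs among the 791 that were higher, and at 460 among the 851 that were lower, the mean of at least 1 construct lay on the opposite side of the Mock mean. This was the WT mean at 170 higher and 238 lower IDs, the S112A mean at 150 and 194 and the Y55F mean at 60 and 35. Exactly 6 of the 9 construct arrays lay beyond Mock at 298 higher and 426 lower IDs. At 270 and 405 of these the other 3 arrays all belonged to 1 construct, which was WT at 133 and 217, S112A at 103 and 165 and Y55F at 34 and 23. The constructs differed by the F test at 725 (of 791) higher and 805 (of 851) lower IDs. Of all IDs 29.2% did, a share not matched for level. The 1642 IDs were selected because their construct arrays did not all clear Mock, and the F test used the same arrays. Their share past the F test is therefore a description. At the IDs past the F test the pooled mean averages unlike construct means. The same selection applies to larger changes. Of the 347 IDs with a pooled change of at least 1.5-fold (1.39% of all), 196 were not common to the 3 constructs, and the constructs differed by the F test at 190 of those.

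**Figure D5:**
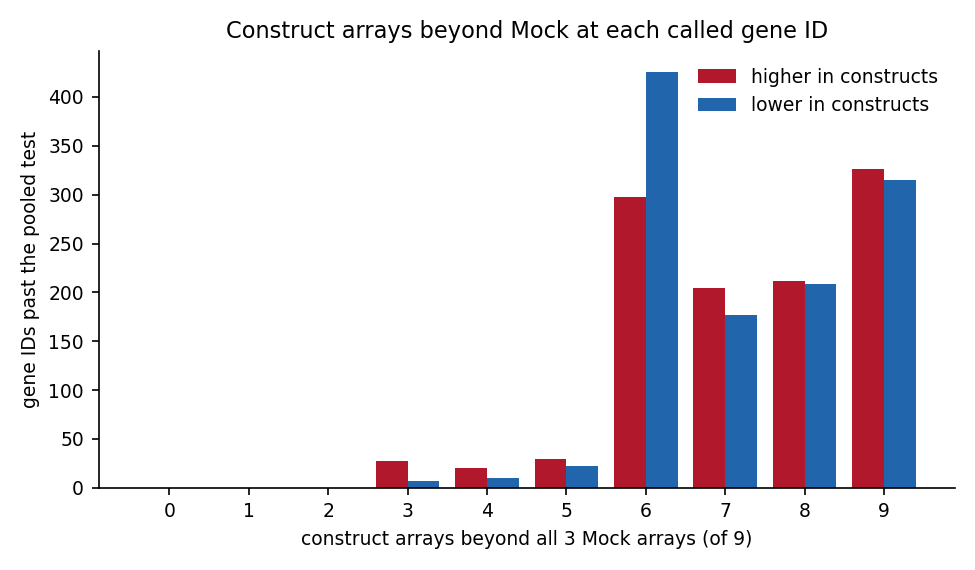
Number of gene IDs past the pooled test (y axis) by how many of the 9 construct arrays lay beyond all 3 Mock arrays on the side of the pooled difference (x axis), for IDs higher (red) and lower (blue) in the constructs. The bars are tallest at 6 arrays for the lower IDs (426) and at 9 arrays for the higher IDs (326), and no ID has fewer than 3.

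By mean square over all gene IDs, the step from Mock to the constructs was smaller than the differences among the constructs. The mean square of the pooled contrast was 0.0658 per ID, that among the 3 constructs 0.150 per degree of freedom, and that between arrays of a group 0.0145. Of the sum of squares between the 4 groups, 18.0% lay on the pooled contrast and 82.0% among the constructs. These shares are not per degree of freedom, of which the constructs hold more. The root mean square of the pooled difference was 0.17 on the log2 scale, and the construct means departed from their common mean by 0.20 in WT, 0.19 in S112A and 0.16 in Y55F cells. These are unlike measures, since each construct mean is part of that common mean. The pooled difference was larger than the departure of every construct at 7772 IDs (31.2%). Among these were 625 of the 641 common IDs, which were chosen for their pooled difference. In the tests, 5345 IDs differed among constructs without passing the pooled test, 1931 passed both, and 352 passed the pooled test alone (1.41% of all IDs). Of these 352, 240 were common IDs.

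The 91 IDs that passed with a single mean for all 9 construct arrays were all among the common IDs. In that fit 1912 IDs had an unadjusted p under 0.05. The 30 higher IDs had a median rise of 1.46-fold and ranged from 1.20-fold to 2.67-fold, and the 61 lower IDs had a median fall of 1.54-fold and ranged from 1.22-fold to 2.77-fold. Their construct means spanned a median of 0.18 and 0.25 on the log2 scale. The F test still found the constructs to differ at 12 of the 30 and 29 of the 61. Of the 4 IDs named above, ENSG00000173926, ENSG00000130755 and ENSG00000160255 passed in this fit and ENSG00000171401 did not.

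Common IDs were found mainly at middle and high levels. With the IDs ordered by mean level into 10 bins of 2491 or 2492, the lowest bin, with a median level of 4.64, held no common ID and no ID past the pooled test. The share of common IDs was 0.201% in the next bin and 2.25% in the fifth, where the median level was 6.82. It was 4.61% to 4.86% in the seventh to ninth bins, with median levels of 8.59 to 10.33, and 4.09% in the highest, with a median of 11.58. The higher common IDs had a median Mock level of 9.01 and the lower ones of 9.43. From the fifth bin up, rises outnumbered falls in the seventh (60 to 55), eighth (74 to 43) and ninth (71 to 50). Falls outnumbered rises in the fifth (37 to 19), the sixth (42 to 33) and the highest (60 to 42). The balance within bins was not recomputed under other scalings, which moved the split of the common IDs as a whole. How signal over background limits calls in the low bins was not tested. The spread between arrays at the common IDs, as a median SD, was 0.057 in Mock, 0.060 in WT, 0.079 in S112A and 0.085 in Y55F for the higher ones and 0.065, 0.066, 0.091 and 0.089 in the same order for the lower ones. Over all IDs it was 0.074, 0.073, 0.082 and 0.086, so that in S112A and Y55F cells the lower common IDs varied more than the median ID. A narrow range in Mock or in the construct arrays makes separation easier, so these SDs are in part what the rule selects. The SDs over all IDs are not matched for level.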

How the data were processed

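The deposited file holds log2 expression values per Ensembl gene ID for 12 Affymetrix arrays, made with RMA and affy per the submitters' processing notes. Versions, array model and annotation are not given in the sources used here. Their range shows the log2 scale. No filter was applied to the deposited values. In limma 3.58.1 (R 4.3.3), each group had its own mean in 1 fit to all 12 arrays (8 residual degrees of freedom). The contrast of the mean of the 3 construct means with Mock, and a moderated F test among the constructs, used eBayes and Benjamini-Hochberg adjustment over 24916 IDs. The replicates carry numbers, and nothing says that they came from separate cultures, so p-values measure the spread between arrays, which may be technical. The pooled test was tried on simulated data with changes alike in the 3 constructs. Differences among constructs were not simulated, and the separation rule was not checked in this way. The members and gene lists were chosen with earlier results of these data known. The RefSeq table used here held 0 Ensembl entries and matched none of the IDs, so the lists were not run, and the rule for named genes took its stated form for IDs without symbols, which is the 2 rises and 2 falls with the largest common size. Alternatives are in the closing section.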

Additional observations from a re-analysis of the deposited data

Results flagged for a closer look

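At 3 of the 4 named gene IDs the difference from Mock was not the same size in the 3 constructs, by the moderated F test in limma. For ENSG00000173926 the adjusted p was 0.000483, with WT at 2.29-fold, S112A at 3.01-fold and Y55F at 2.78-fold above Mock. For ENSG00000130755 it was 0.00967, with Y55F at 3.35-fold and the other 2 at 2.17-fold and 2.22-fold. For ENSG00000171401 it was 1.81e-06, with S112A 2.01-fold below Mock and WT and Y55F 7.69-fold and 7.43-fold below. Groups of 3 arrays are too small to test for single outlying arrays.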

How the results depend on the processing

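Recomputing the results under 23 alternatives gave 259 values. For 237 the call or, within 1.5 times, the count was as before. A change of sign could be scored only for the pooled differences of the 4 named IDs, which were chosen for large changes, and 0 changed sign. The majority direction of the counts turned with the scaling, as given above. Array weights raised the IDs past the pooled test to 5822, with weights of 5.31 for Mock replicate 1 and 6.06 for S112A replicate 2 and 0.467 to 1.35 for the others, and the cause was not tested. A single mean for all construct arrays, which by construction counts construct differences as spread, left 91 IDs past the test and 91 common IDs. Requiring 1.5-fold left 347 IDs past the test, 151 separated and 151 common. With a construct left out fewer arrays must agree, and separated IDs numbered 2609 without WT, 2264 without S112A and 1353 without Y55F. Common IDs numbered 1966 without WT, 1679 without S112A and 795 without Y55F. Of the 641, 604, 585 and 498 were common again in the same order. IDs differing among constructs fell to 4345 without WT, 4921 without S112A and 5227 without Y55F, where 2 groups are compared. Leaving out 1 array gave 1384 to 2353 IDs past the test, 812 to 1339 separated, 575 to 731 common and 6388 to 7427 differing among constructs. Without a Mock array, 477 to 493 of the 641 common IDs were common again in the same direction, and 491 were with arrays centred on their medians. The replicate block gave 2641 IDs past the test and 845 common, 594 of them among the 641. Deviations of same-numbered arrays from their group means correlated at r = -0.29 to 0.61, with 10 of 18 pairs above 0.1 and 16 above 0. All 3 pairs of Mock with WT (0.14 to 0.46) and of S112A with Y55F (0.12 to 0.61) were above 0.1, but only 4 of the 9 pairs with Mock were, so the rule of every pair above 0.1 was not met for the pooled comparison. As a hint from the data, not the design, the best correlate of 11 of the 12 arrays outside their own group had their number. At the named IDs, leaving out a construct ended the F test's call for ENSG00000173926 without WT (0.294), ENSG00000130755 without Y55F (0.93) and ENSG00000171401 without S112A (0.911).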

Other observations

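The rule that set Mock apart from the other 9 arrays can be read for each labelled group, a reading added after the data were seen. The 3 Mock arrays lay outside the range of the other 9 at 763 gene IDs (3.06%), the WT arrays at 2302 (9.24%), the S112A arrays at 2484 (9.97%) and the Y55F arrays at 2324 (9.33%). WT arrays were above the other 9 at 1370 IDs and below them at 932, S112A arrays at 1063 and 1421, and Y55F arrays at 1202 and 1122.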
